A study of Mus musculus with 4 samples.

Results

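The genes described here encode the proteasome, its activators and its assembly factors. They were taken as every gene of the count table whose symbol has the form Psm, a letter from a to g and a number, which gave 48 genes of 55487, each with a single row. The 5 inducible members are Psmb8, Psmb9, Psmb10, Psme1 and Psme2, and the other 43 are called constitutive members below, although Psmb11 and Psma8 among them are restricted to thymus and testis. Expression was measured by RNA-seq in Langerhans cells, antigen-presenting cells of the outer skin, taken from the ears of wild-type mice. Imiquimod, which activates Toll-like receptor signalling and serves on skin as a common model of psoriasis-like skin inflammation, was given in 2 libraries, and Vaseline, the petrolatum control, in 2 others. The dose, the length of treatment, the age of the mice and any pooling of animals are not given in the sources used here. Nothing in the labels ties the libraries to different animals. The p-values therefore measure only how far these samples spread, and that spread may be technical. Both Vaseline libraries carry the same letter code and each imiquimod library has its own, with no meaning given. If the codes mark batches, batch and treatment cannot be told apart.

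The proteasome is a barrel of alpha and beta rings that degrades ubiquitin-tagged proteins, and 3 of its beta subunits carry the proteolytic sites. Interferon gamma induces 3 alternative catalytic subunits, Psmb8, Psmb9 and Psmb10, which take the places of Psmb5, Psmb6 and Psmb7 in newly built particles and give the immunoproteasome. The same cytokine induces the activator PA28, made of Psme1 and Psme2. Immunoproteasomes are abundant in dendritic cells, where their products feed peptide loading of MHC class I.

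Promoters of 2 inducible subunits and of the constitutive partners they replace are shown because the comparison turns on these pairs. Each runs from 250 bases before to 50 bases after the RefSeq start of the gene on build GRCm38.p6 and is written along the gene's own strand, with motif matches in capitals. Psmb8 is at chr17:34197945-34198244 on the plus strand and Psmb9 at chr17:34187281-34187580 on the minus strand. Psmb5 is at chr14:54617946-54618245 on the minus strand and Psmb6 at chr11:70525107-70525406 on the plus strand.
Psmb8: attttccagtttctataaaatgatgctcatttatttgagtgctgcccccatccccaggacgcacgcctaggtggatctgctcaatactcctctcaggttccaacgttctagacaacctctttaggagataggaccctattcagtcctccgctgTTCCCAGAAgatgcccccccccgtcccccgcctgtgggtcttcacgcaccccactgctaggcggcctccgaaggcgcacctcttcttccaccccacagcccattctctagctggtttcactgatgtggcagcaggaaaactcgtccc
Psmb5: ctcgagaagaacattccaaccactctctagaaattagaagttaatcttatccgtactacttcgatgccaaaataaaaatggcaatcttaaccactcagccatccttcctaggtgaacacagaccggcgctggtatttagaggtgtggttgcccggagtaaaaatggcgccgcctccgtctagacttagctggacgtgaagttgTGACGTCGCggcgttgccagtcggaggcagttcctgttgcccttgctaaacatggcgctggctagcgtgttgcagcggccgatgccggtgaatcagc
Psmb9: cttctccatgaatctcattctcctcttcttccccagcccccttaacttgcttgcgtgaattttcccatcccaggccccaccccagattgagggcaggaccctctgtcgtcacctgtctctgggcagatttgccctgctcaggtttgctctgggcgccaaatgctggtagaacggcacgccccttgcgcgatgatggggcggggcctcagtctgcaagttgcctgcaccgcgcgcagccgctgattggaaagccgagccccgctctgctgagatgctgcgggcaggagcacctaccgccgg
Psmb6: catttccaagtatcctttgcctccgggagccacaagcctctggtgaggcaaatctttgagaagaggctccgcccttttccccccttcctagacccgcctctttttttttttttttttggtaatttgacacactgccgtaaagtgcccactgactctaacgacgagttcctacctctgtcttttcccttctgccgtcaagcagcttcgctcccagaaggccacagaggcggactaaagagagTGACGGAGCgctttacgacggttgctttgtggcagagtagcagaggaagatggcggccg

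A motif like the interferon gamma activated site, TTCNNNGAA, was found in the Psmb8 promoter, where its match is in capitals. It also occurred in the promoters of Psmd2 and Psmg1, so in 3 of the 40 members with a promoter entry, against 8.30% of 32851 mouse promoters of the same length. The motif TGACNNNGC, like the antioxidant response element bound by factors that raise constitutive proteasome genes, was found in Psmb5 and Psmb6, with its match in capitals, and in Psmc6, Psmd12, Psmd9 and Psme4. Those 6 of 40 members compare with 12.4% of all promoters, and none of the 5 inducible members held it. A motif like the interferon-stimulated response element, GAAANNGAAA, was found in 5 of 40 members, against 3.44% of all promoters. Of the inducible members only Psme1 held it, beside Psmb3, Psmd4, Psmd9 and Psmg4. Both strands were searched for each motif, and the Psmb9 window held none of the 3. Psmb9 shares its promoter region with Tap1, the peptide transporter gene read in the opposite direction, whose start lies 226 bases away.

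Library totals were 14902782 and 20690182 counts for imiquimod 1 and 2, against 41998172 and 76028955 for Vaseline 1 and 2, a 5.10-fold range. The members together took 0.256% and 0.179% of the counts in imiquimod 1 and 2, against 0.225% and 0.253% in Vaseline 1 and 2. Genes of olfactory and vomeronasal receptors were taken to give the background, though single receptors may be expressed in skin. The background is given per kilobase of exon in CPM, here counts scaled to the library total. It was 0.526 and 1.26 CPM in imiquimod 1 and 2, against 0.377 and 0.0913 CPM in Vaseline 1 and 2. All 48 members passed the filter on low counts, as did 39439 genes in all, and 46 members had a mean level of at least 5 times this background. The 2 that did not were Psma8, at 1.87 times the background, and Psmb11, at 2.53 times. The 10 Langerhans cell markers were detected in every library, with summed levels of 8526 and 7108 CPM, here scaled with TMM factors, in imiquimod 1 and 2 and 23290 and 61296 CPM in Vaseline 1 and 2. Keratinocyte markers were also present, at summed levels of 17975 and 5109 CPM in imiquimod 1 and 2 and 19180 and 23069 CPM in Vaseline 1 and 2. Each gene level below is therefore that of the isolate, and fewer cells of a type and less RNA per cell cannot be told apart.

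No member differed between imiquimod and Vaseline past the threshold in the edgeR quasi-likelihood test with Benjamini-Hochberg adjustment over all genes tested. The count was 0 of 48 higher, against 0.0634% of all tested genes, and 0 of 48 lower, against 0.137%. Adjusted p-values of the members ran from 0.222 for Psmb8 to 0.891 for Psmg2. At an unadjusted p under 0.05, 5 members were lower in imiquimod, namely Psmb8, Psmb9, Psmb5, Psmb2 and Psmd14, which is 10.4% of members beside 5.1% of all genes. The log2 fold change, imiquimod over Vaseline, was negative for 47 of 48 members, with a median of -0.88 and an SD over members of 0.40. Over all tested genes 39.4% were negative and the median was 0.41, but among the 14605 genes at 5 times the background or more 82.9% were negative, with a median of -0.68. In a fit of those 14605 genes alone, the median of all genes was 0.08, and 32 of 46 members were negative, beside 44.3% of genes. That fit called 0 members and 0% of genes, and 1 member, Psmb8, had an unadjusted p under 0.05 and was lower, beside 4.78% of genes. Of the 46 members 14 were thus negative in the fit of all tested genes and positive in this one.

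Psmb8, the inducible chymotrypsin-like subunit, had the lowest log2 fold change of the members. The gene lies at chr17:34197721-34201454 in the MHC region. Its level was 39.0 and 30.4 CPM in imiquimod 1 and 2, against 72.7 and 222 CPM in Vaseline 1 and 2. Both imiquimod libraries were below both Vaseline libraries, and the Vaseline libraries themselves differed 3.05-fold. The log2 fold change was -2.09 (SE 0.74, edgeR adjusted p = 0.222), and 2.27% of genes well above background lay lower still. In the fit of those genes alone it was -1.21 (adjusted p = 0.472), and without Vaseline 2 it was -1.09 in the fit of all tested genes. DESeq2 called Psmb8 lower, at -2.42 with an adjusted p of 0.0198, the only call among the 41 members to which it gave an adjusted p; that is 2.44% of them, where DESeq2 called 6.95% of all genes with an adjusted p lower. On genes at 5 times the background or more alone, DESeq2 gave Psmb8 -1.25 and an adjusted p of 0.188, so the call was lost. Exons of the model gene Gm20496 cover 14.7% of the Psmb8 exonic bases, and the counting of reads in shared exons is not given in the sources used here.

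Psmb9, the inducible subunit that replaces Psmb6, at chr17:34181987-34187764, was expressed at a lower level. It had 7.86 and 7.88 CPM in imiquimod 1 and 2, against 11.98 and 26.9 CPM in Vaseline 1 and 2. The imiquimod libraries gave nearly the same level and lay below both Vaseline libraries, with a log2 fold change of -1.31 (SE 0.61, edgeR adjusted p = 0.338) that was -0.42 in the fit of genes at 5 times the background or more. Psmb10, the inducible trypsin-like subunit at chr8:105935735-105938444, had 7.41 and 5.92 CPM in imiquimod 1 and 2, against 7.91 and 11.8 CPM in Vaseline 1 and 2. The groups did not overlap, but imiquimod 1 and Vaseline 1 were close. The log2 fold change of Psmb10 was -0.58 (SE 0.61, edgeR adjusted p = 0.588), and its sign turned in the fit of genes at 5 times the background or more, at 0.23 (adjusted p = 0.840).

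The activator PA28 showed another order of libraries. Psme1, its alpha subunit at chr14:55578123-55581529, had 124 and 53.8 CPM in imiquimod 1 and 2, against 112 and 208 CPM in Vaseline 1 and 2. Psme2, its beta subunit at chr14:55587441-55591113, had 34.0 and 14.5 CPM in imiquimod 1 and 2, against 24.2 and 62.7 CPM in Vaseline 1 and 2. For both subunits imiquimod 1 was above Vaseline 1, so the groups overlapped. Their log2 fold changes were -0.85 (SE 0.75) and -0.86 (SE 0.62), with edgeR adjusted p-values of 0.529 and 0.466. Single libraries moved these values, from -1.65 without imiquimod 1 to -0.34 without Vaseline 2 for Psme1, and from -1.67 without imiquimod 1 to -0.02 without Vaseline 2 for Psme2. In the fit of genes at 5 times the background or more the values were -0.12 for Psme1 and -0.08 for Psme2. Psme2b, an annotated copy of Psme2 on chromosome 11, received as many counts as 33.4% of the Psme2 total, and how reads shared by such copies were assigned is not given in the sources used here.

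**Figure D1:**
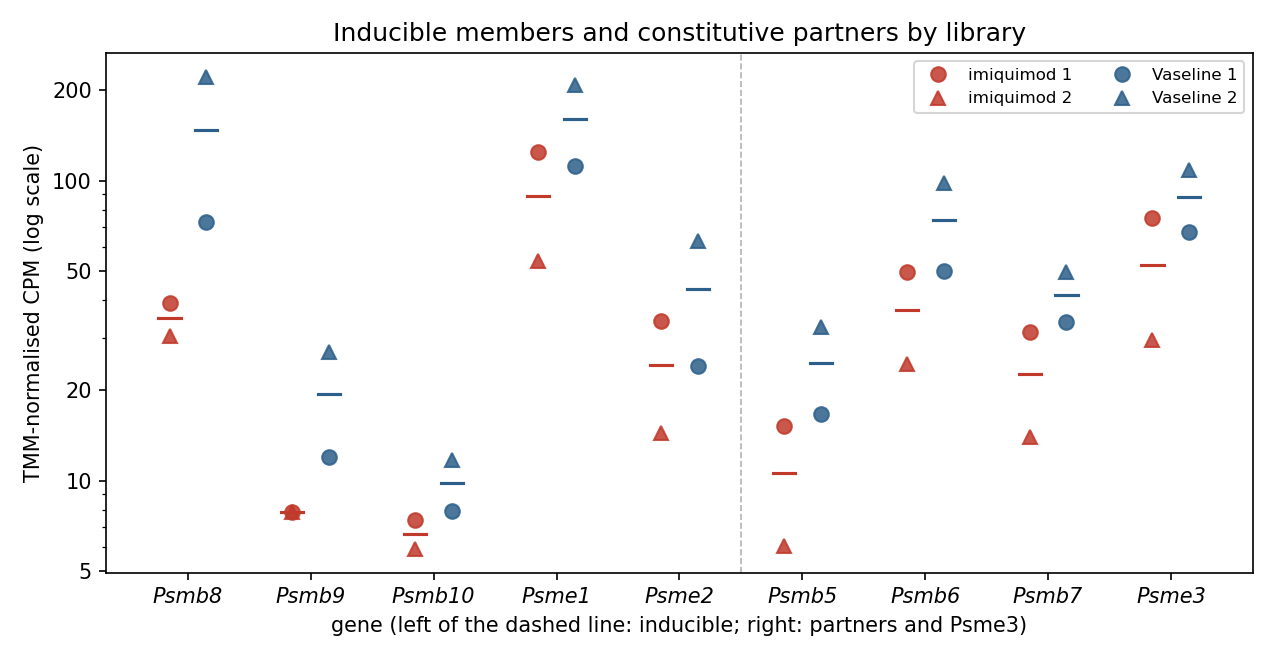
TMM-normalised CPM of the 5 inducible members, the 3 constitutive catalytic partners and Psme3 in each library, on a log axis, with imiquimod left of Vaseline and bars at the group means. Psmb8 had 39.0 and 30.4 CPM in imiquimod and 72.7 and 222 CPM in Vaseline, and Vaseline 2 was the highest library for each of these 9 genes.

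The constitutive partners had the same highest and lowest libraries as one another. Psmb5, the constitutive chymotrypsin-like subunit, had 15.2 and 6.07 CPM in imiquimod 1 and 2, against 16.7 and 32.6 CPM in Vaseline 1 and 2 (log2 fold change -1.26, SE 0.61, edgeR adjusted p = 0.349). Psmb6, the caspase-like subunit, had 49.7 and 24.4 CPM in imiquimod 1 and 2, against 49.8 and 98.2 CPM in Vaseline 1 and 2 (-1.01, SE 0.66, edgeR adjusted p = 0.436). Psmb7, the trypsin-like subunit, had 31.3 and 14.0 CPM in imiquimod 1 and 2, against 33.7 and 49.7 CPM in Vaseline 1 and 2 (-0.90, SE 0.62, edgeR adjusted p = 0.451). In all 3 genes imiquimod was lower without overlap, as in 50.3% of genes at 5 times the background or more, but imiquimod 1 and Vaseline 1 were nearly equal for Psmb6. Exons of other genes cover 12.1% of Psmb5 and 11.8% of Psmb7.

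The ratio of an inducible subunit to the partner it replaces needs no scaling between libraries. Psmb8 counts over Psmb5 counts gave 2.57 (95% exact interval 2.21 to 2.99) and 5.01 (4.32 to 5.85) in imiquimod 1 and 2, against 4.34 (3.99 to 4.73) and 6.82 (6.46 to 7.21) in Vaseline 1 and 2. The groups overlapped, since imiquimod 2 lay above Vaseline 1. The mean log2 ratio was 1.84 ± 0.68 in imiquimod and 2.44 ± 0.46 in Vaseline (SD, n = 2 each), a difference of -0.60 with an exact two-sided permutation p of 0.667. It was -0.12 without imiquimod 1, -1.08 without imiquimod 2, -0.93 without Vaseline 1 and -0.28 without Vaseline 2.

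Psmb9 over Psmb6 gave 0.158 and 0.323 in imiquimod 1 and 2, against 0.241 and 0.274 in Vaseline 1 and 2. Here both Vaseline libraries lay between the imiquimod libraries, and the difference of log2 ratios was -0.18 (exact permutation p = 1, n = 2 each). Without imiquimod 1 the difference was 0.33, in the opposite direction. With the background of each library subtracted from the counts, the ratios were 0.124 and 0.222 in imiquimod 1 and 2, against 0.215 and 0.269 in Vaseline 1 and 2, a difference of -0.54 (exact permutation p = 0.667, n = 2 each) with Vaseline 2 highest. Psmb10 over Psmb7 gave 0.237 and 0.424 in imiquimod 1 and 2, against 0.235 and 0.237 in Vaseline 1 and 2. Only imiquimod 2 stood apart, and the difference was 0.43 (exact permutation p = 0.333, n = 2 each); without imiquimod 2 it was 0.01. With the background subtracted it was 0.39, and the groups overlapped (exact permutation p = 1, n = 2 each). With 2 libraries a group 0.333 is the smallest p this test can give, and adjusted over the 3 pairs every p was 1. The 95% intervals cover counting error only, since reads counted without molecular identifiers need not stem from separate molecules.

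**Figure D2:**
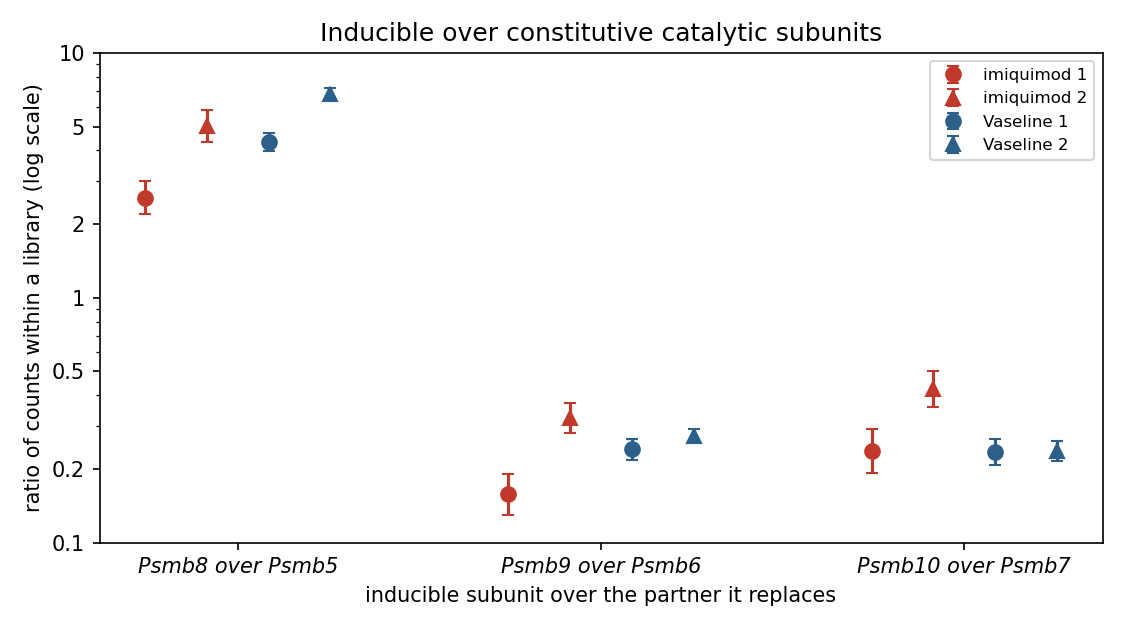
Counts of each inducible catalytic subunit over those of its constitutive partner within each library, on a log axis, with 95% exact intervals for counting error. Psmb8 over Psmb5 was 2.57 and 5.01 in imiquimod and 4.34 and 6.82 in Vaseline, and in each pair imiquimod 2 lay above imiquimod 1.

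Set side by side, inducible and constitutive members had nearly the same median fold change. The median log2 fold change was -0.86 over the 5 inducible members and -0.89 over the other 43, a difference of 0.03. In the fit of genes at 5 times the background or more the medians were -0.12 and -0.16, a difference of 0.04. Within a library, the median log2 CPM of the inducible members minus that of the others was -0.45 and -0.44 in imiquimod 1 and 2, against -0.89 and -0.28 in Vaseline 1 and 2. The Vaseline libraries lay on either side of the imiquimod libraries, with a pooled SD of 0.30. The agreement of the medians hides a spread among the inducible members, whose log2 fold changes had an SD of 0.59. The SD was 0.37 among the others, and 0.26 among these without Psma8 and Psmb11. Psmb8 lay furthest out, at -2.09, and the rest of the inducible members ran from -1.31 for Psmb9 to -0.58 for Psmb10.

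**Figure D3:**
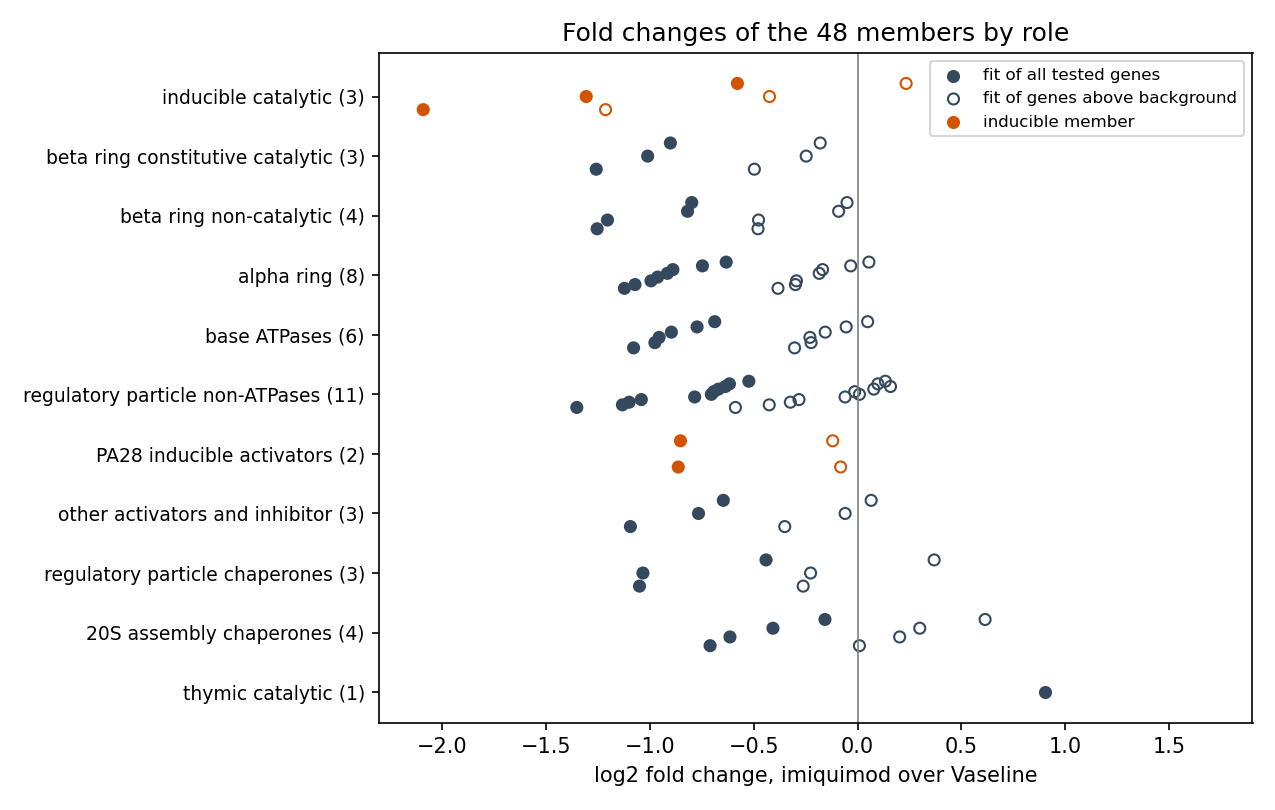
Log2 fold change, imiquimod over Vaseline, of each member by its role, with the number of members in brackets. Filled points show the fit to every tested gene and open points the fit to genes well above background, where 46 members were fitted; the medians of all members are -0.88 and -0.14.

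In the core particle, the 8 alpha subunits, which form the outer rings and gate the barrel, had a median log2 fold change of -0.94. They ran from -1.12 for Psma7 to -0.63 for Psma3. Psma7 had 66.0 and 28.4 CPM in imiquimod 1 and 2, against 70.0 and 134 CPM in Vaseline 1 and 2 (edgeR adjusted p = 0.419). Psma3 had 62.0 and 19.3 CPM in imiquimod 1 and 2, against 45.9 and 78.8 CPM in Vaseline 1 and 2, with imiquimod 1 above Vaseline 1 (edgeR adjusted p = 0.580). Its sign turned to 0.05 in the fit of genes at 5 times the background or more. The 4 non-catalytic beta subunits, which complete the inner rings, had a median of -1.01. Psmb2 had 19.7 and 12.6 CPM in imiquimod 1 and 2, against 30.5 and 45.6 CPM in Vaseline 1 and 2 (log2 fold change -1.25, edgeR adjusted p = 0.357). Psmb3 had 21.5 and 10.4 CPM in imiquimod 1 and 2, against 21.1 and 33.4 CPM in Vaseline 1 and 2 (-0.80, edgeR adjusted p = 0.481). The groups were separate for Psmb2 and overlapped for Psmb3.

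The regulatory particle recognises ubiquitin chains and unfolds the substrate before it enters the barrel. Its 6 ATPases, the unfolding motor, had a median of -0.93, from -1.08 for Psmc5 to -0.69 for Psmc2. Psmc5 had 34.0 and 18.3 CPM in imiquimod 1 and 2, against 37.7 and 71.6 CPM in Vaseline 1 and 2 (edgeR adjusted p = 0.406), and the groups did not overlap. Psmc2 had 56.4 and 25.1 CPM in imiquimod 1 and 2, against 46.9 and 83.3 CPM in Vaseline 1 and 2 (edgeR adjusted p = 0.554), and they did. The 11 other subunits had a median of -0.70, and 4 of the 11 were separate between groups with imiquimod lower, beside 50.3% of genes at 5 times the background or more. Psmd14, the deubiquitinase of the lid, had the lowest value at -1.35, with 38.5 and 18.8 CPM in imiquimod 1 and 2, against 49.0 and 95.5 CPM in Vaseline 1 and 2 (edgeR adjusted p = 0.351). Psmd7, its partner in the lid, had the highest at -0.52, with 107 and 27.3 CPM in imiquimod 1 and 2, against 70.9 and 120 CPM in Vaseline 1 and 2 (edgeR adjusted p = 0.663). Psmd7 thus differed more between the imiquimod libraries than between the groups, as did other members such as Psma3 and Psmd4. Without imiquimod 2 the log2 fold change of Psmd7 was 0.16.

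Among the remaining activators, Psme3, the nuclear activator PA28 gamma, had 74.9 and 29.4 CPM in imiquimod 1 and 2, against 67.2 and 109 CPM in Vaseline 1 and 2 (log2 fold change -0.77, SE 0.68, edgeR adjusted p = 0.531). Its value was close to those of Psme1 and Psme2. Psme4, the activator PA200, had 88.5 and 49.1 CPM in imiquimod 1 and 2, against 116 and 176 CPM in Vaseline 1 and 2 (-1.09, edgeR adjusted p = 0.443). Psmf1, a regulator first described as a proteasome inhibitor, had 19.0 and 8.14 CPM in imiquimod 1 and 2, against 18.04 and 23.5 CPM in Vaseline 1 and 2 (-0.65, edgeR adjusted p = 0.546). Psme4 was separate between groups, and Psme3 and Psmf1 overlapped.

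Assembly chaperones hold subunits together while the particle is built and then leave it. The 3 chaperones of the regulatory particle had log2 fold changes from -1.05 for Psmd5 to -0.44 for Psmd9. Psmd5 had 15.3 and 11.97 CPM in imiquimod 1 and 2, against 23.9 and 32.1 CPM in Vaseline 1 and 2 (edgeR adjusted p = 0.400). Psmd9 had 11.9 and 10.0 CPM in imiquimod 1 and 2, against 12.1 and 17.5 CPM in Vaseline 1 and 2 (edgeR adjusted p = 0.669); exons of other genes cover 25.5% of it. The 4 chaperones of the core particle had the median nearest 0 of any role with more than 1 member, at -0.51. They were the only such role in which every member was positive in the fit of genes at 5 times the background or more, at a median of 0.25. Psmg1, which pairs with Psmg2 on the alpha ring, had 7.22 and 4.47 CPM in imiquimod 1 and 2, against 10.1 and 8.497 CPM in Vaseline 1 and 2 (-0.71, edgeR adjusted p = 0.525). Psmg2 had 9.71 and 5.55 CPM in imiquimod 1 and 2, against 6.84 and 9.73 CPM in Vaseline 1 and 2 (-0.16, edgeR adjusted p = 0.891). Psmg1 was the only member at 5 times the background or more whose highest library was Vaseline 1, and Psmg2 overlapped between groups. As means over the 4 libraries these chaperones lay below the median of all members, 28.9 CPM per kilobase. They ran from 5.93 to 21.0 for the core and from 3.61 to 4.96 for the regulatory particle.

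Of the tissue-restricted members, Psmb11, the thymic catalytic subunit, was the only member with a positive log2 fold change, at 0.90 (edgeR adjusted p = 0.455). It had 4.28 and 9.31 CPM in imiquimod 1 and 2, against 5.44 and 2.14 CPM in Vaseline 1 and 2. Its libraries stood in the order imiquimod 2, Vaseline 1, imiquimod 1 and Vaseline 2, while the background ran imiquimod 2, imiquimod 1, Vaseline 1 and Vaseline 2. Relative to that background it was at 1.78 and 2.56 times in imiquimod 1 and 2, against 2.87 and 2.92 times in Vaseline 1 and 2. Psma8, the testis form of an alpha subunit, had 0.639 and 0.963 CPM in imiquimod 1 and 2, against 1.35 and 1.94 CPM in Vaseline 1 and 2, which is 0.511 and 0.509 times the background in imiquimod 1 and 2, against 1.37 and 5.08 times in Vaseline 1 and 2.

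Per kilobase of principal transcript, the members ranged from 0.722 CPM for Psma8 to 130 CPM for Psmd4, with a median of 28.9, as means over the 4 libraries. Psmd4, a ubiquitin receptor, and Psme1, at 112 CPM per kilobase, had the highest levels. Psmb8, at 55.9 CPM per kilobase, stood above its partner Psmb5 at 19.6. Psmb9, at 10.1, stood below Psmb6 at 69.6, and Psmb10, at 6.29, below Psmb7 at 27.7. Of the 3 inducible catalytic genes, Psmb8 alone was thus the more abundant transcript of its pair, and by this length it was so in every library. Per kilobase of all exons the order turned in imiquimod 1, with Psmb8 at 23.1 times the background and Psmb5 at 33.8 times. Psmb8 stayed above Psmb5 by that length in imiquimod 2 and both Vaseline libraries. Among the constitutive subunits of the core other than Psma8 and Psmb11, levels per kilobase ran from 14.3 for Psma2 to 81.6 for Psma7.

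On the TMM scale, the members varied together between libraries of the same treatment. The TMM factors were 1.05 and 1.66 in imiquimod 1 and 2, against 0.955 and 0.598 in Vaseline 1 and 2. The orders and folds of CPM below depend on them. By library totals the members together were highest in imiquimod 1, at 0.256%, with 0.253% in Vaseline 2 and 0.225% in Vaseline 1. Imiquimod 2 was lowest there too, at 0.179%. Of the 46 at 5 times the background or more, 45 had their lowest CPM in imiquimod 2, beside 68.1% of such genes, with Psmb9 the exception, and 45 had their highest in Vaseline 2, beside 68.4%. Groups did not overlap, with imiquimod lower, for 22 of all 48 members, beside 20.9% of tested genes, and for 21 of the 46, beside 50.3% of genes at that level. No member had imiquimod higher without overlap, beside 30.5% of tested genes and 5.56% of genes at that level. Genes at that level, the 46 members among them, were chosen by a ratio in which Vaseline 2 weighs most. Their shares highest in Vaseline 2 or lower in imiquimod may in part follow from that choice. Imiquimod 2 stood at 0.445 of imiquimod 1 by the median of the 43 constitutive members. The same ratio was at 0.780 for Psmb8, 1.00 for Psmb9 and 0.799 for Psmb10, but at 0.433 for Psme1 and 0.426 for Psme2. Vaseline 2 was above Vaseline 1 by a median of 1.71-fold over the constitutive members. For the inducible members that fold was 3.05 for Psmb8, 2.60 for Psme2, 2.24 for Psmb9, 1.87 for Psme1 and 1.49 for Psmb10. Some constitutive members of low level stood as close between the imiquimod libraries as the inducible catalytic genes, with 0.845 for Psmd9, 0.784 for Psmd5 and 0.772 for Psmg3, and the median of genes well above background was 0.661. In imiquimod 2, where the background was highest, Psmb9 and Psmb10 were at 2.84 and 4.58 times the background. The part of the background in these ratios was not tested.

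**Figure D4:**
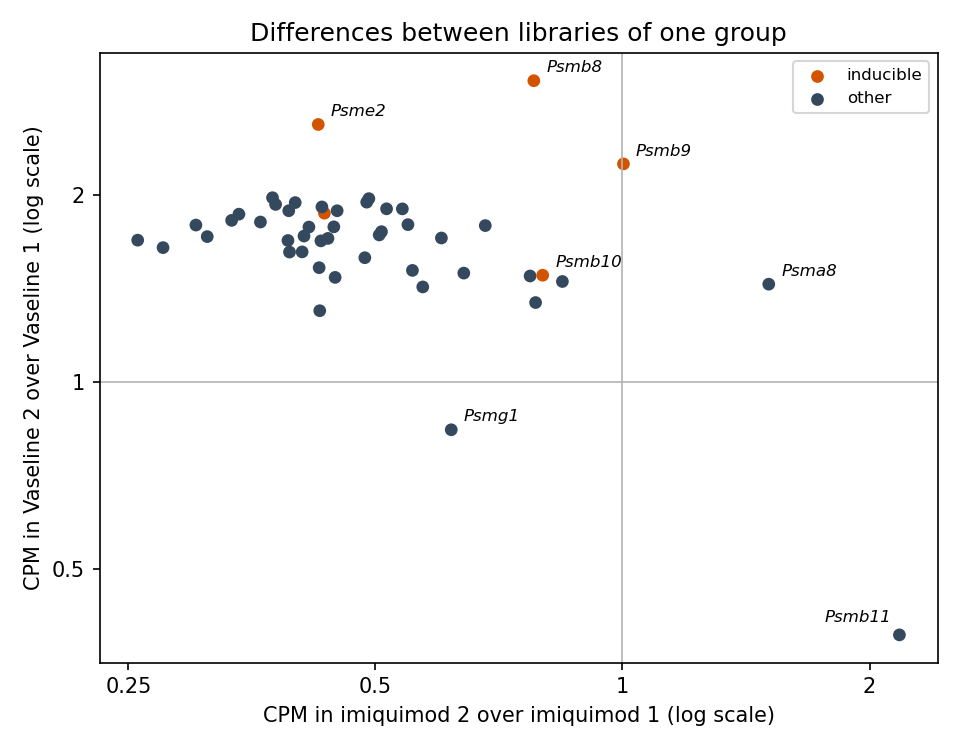
CPM in imiquimod 2 over imiquimod 1 (x axis) and in Vaseline 2 over Vaseline 1 (y axis) for each of the 48 members, both on log axes. Most constitutive members lie near 0.445 and 1.71, while Psmb8 lies at 0.780 and 3.05 and Psmb9 at 1.00 and 2.24.

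As a share of all member counts, the 5 inducible genes made up 8.73% (95% exact interval 8.45 to 9.01) and 10.4% (10.1 to 10.7) in imiquimod 1 and 2, against 9.68% (9.49 to 9.87) and 12.6% (12.4 to 12.7) in Vaseline 1 and 2. The groups overlapped. Psmb8 by itself made up 1.60% and 2.81% in imiquimod 1 and 2, against 3.08% and 5.24% in Vaseline 1 and 2, and did not overlap. Langerhans cell markers took 0.896% and 1.18% of all counts in imiquimod 1 and 2, against 2.22% and 3.66% in Vaseline 1 and 2. The 4 libraries thus stood in the same order as for the Psmb8 share. Library totals and the share of mitochondrially encoded transcripts gave that order too. What sets the Psmb8 share was not tested. Besides Psmb8, the share was lower in imiquimod without overlap for Psma7, Psmb5, Psmb1, Psmd1 and Psmd14. These 6 of 46 members compare with 11% of genes at 5 times the background or more when divided by the same sum. The share was higher without overlap for 10 of 46, namely Psme1, Psmb4, Psmc2, Psmc6, Psmd3, Psmd6, Psmd8, Psmd11, Psmd12 and Psmg2, beside 25.1% of those genes.

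**Figure D5:**
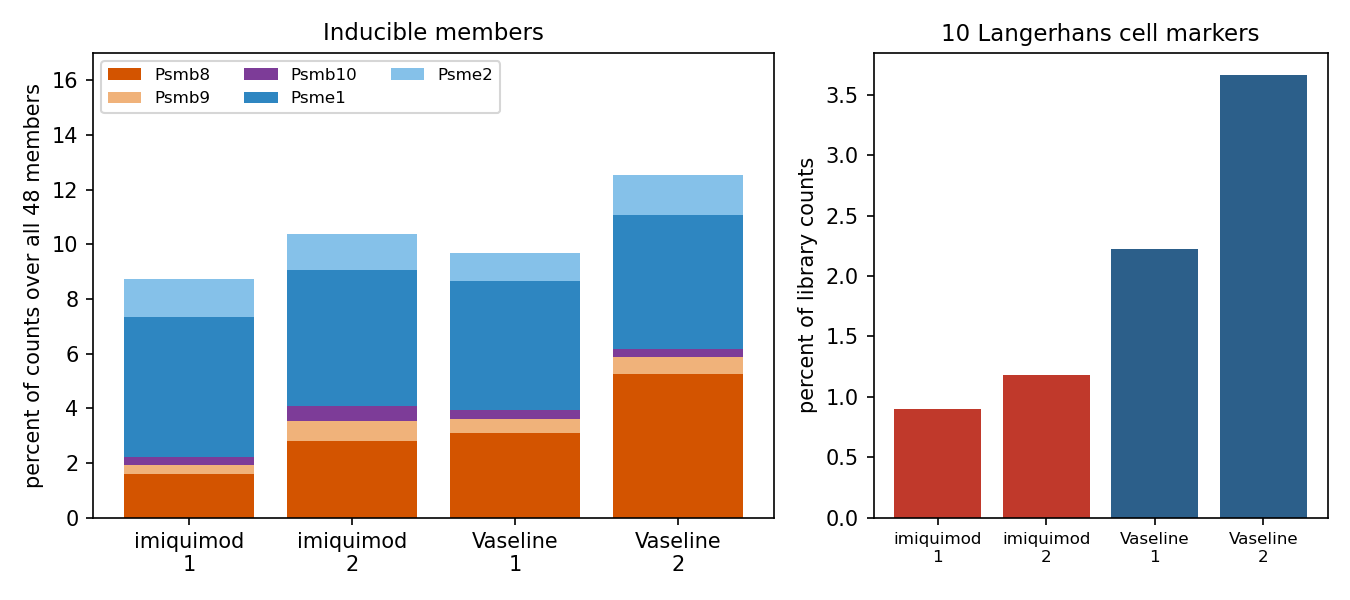
Left, counts of the 5 inducible members as a percent of the counts of all 48 members in each library. Right, counts of the 10 Langerhans cell markers as a percent of all counts in the library. Psmb8 took 1.60% and 2.81% in imiquimod and 3.08% and 5.24% in Vaseline, and the markers 0.896% and 1.18% in imiquimod and 2.22% and 3.66% in Vaseline.

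Relative to Langerhans cell transcripts the order of Psmb8 was reversed. Per 1000 counts of the 10 markers, Psmb8 had 4.58 and 4.28 counts in imiquimod 1 and 2, against 3.12 and 3.62 counts in Vaseline 1 and 2, so both imiquimod libraries were above both Vaseline libraries. Per 100 counts of Ptprc, the pan-leukocyte gene CD45, it had 36.5 and 24.0 counts in imiquimod 1 and 2, against 29.5 and 51.9 counts in Vaseline 1 and 2, with overlap. Psmb9 had 0.922 and 1.11 counts per 1000 marker counts in imiquimod 1 and 2, against 0.514 and 0.439 in Vaseline 1 and 2. The constitutive partner Psmb6 had 5.83 and 3.43 counts per 1000 marker counts in imiquimod 1 and 2, against 2.14 and 1.60 in Vaseline 1 and 2. All 5 inducible genes and their 3 partners were higher in both imiquimod libraries on this measure, whose denominator was chosen after the values were seen. The markers themselves had a median log2 fold change of -2.39, with 10 of 10 negative and 0 called by edgeR. DESeq2 on all tested genes gave them adjusted p-values from 0.00109 for Csf1r to 0.0436 for Ptprc, except Epcam at 0.119. It called 6.95% of all genes with an adjusted p lower. In the edgeR fit of all tested genes the median of genes at 5 times the background or more was -0.68. The share of all genes higher on this measure was not counted, so it shows nothing particular to these genes.

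Genes that work beside the members were not called either. Of 18 partners of the proteasome, such as ubiquitin genes and assembly factors, edgeR called 0, and all 18 had negative log2 fold changes, with a median of -0.97, beside -0.88 for the members. The smallest p among them was that of Pomp, the chaperone that matures the core, with 33.3 and 16.5 CPM in imiquimod 1 and 2, against 43.6 and 106 CPM in Vaseline 1 and 2 (-1.60, edgeR adjusted p = 0.300). Uchl5, a deubiquitinase of the regulatory particle, was at -1.44 (edgeR adjusted p = 0.324). In the fit of genes at 5 times the background or more the median of this list was -0.22.

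Of 14 genes of the pathways that induce the immunoproteasome, edgeR called 0, and 12 were negative with a median of -0.73. Ifngr2, a chain of the interferon gamma receptor, was at -1.11 (edgeR adjusted p = 0.404), Ifnar1, a chain of the type I interferon receptor, at -1.12 (0.444), and Irf8, an interferon regulatory factor of dendritic cells, at -1.04 (0.456). In the fit of genes at 5 times the background or more 6 of the 14 were negative, with a median of 0.08. Of 11 genes of the class I peptide pathway, edgeR called 0 and all 11 were negative, with a median of -0.999 that became -0.19 in that fit. Tap1, which shares its promoter region with Psmb9, had 58.5 and 37.6 CPM in imiquimod 1 and 2, against 59.1 and 132 CPM in Vaseline 1 and 2 (-0.999, edgeR adjusted p = 0.449). Tap2, its partner in the peptide transporter, was at -1.14 (edgeR adjusted p = 0.386), and Pdia3, a chaperone of the loading complex, at -1.66 (0.406).

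Markers of other cell types and the share of mitochondrially encoded transcripts also differed between libraries. Of 10 neutrophil markers, edgeR called 3 higher in imiquimod, namely S100a8, Lcn2 and Mmp8. Of the 10, 9 had positive log2 fold changes, with a median of 2.20. Only 5 of the 10 were at 5 times the background or more, and Mmp8 was not among them. In the fit of such genes edgeR called neither S100a8 (adjusted p = 0.447) nor Lcn2 (adjusted p = 0.311). DESeq2 on all tested genes gave S100a8 an adjusted p of 0.108 and Lcn2 one of 0.00225. The list summed to 614 and 721 CPM in imiquimod 1 and 2, against 870 and 2408 CPM in Vaseline 1 and 2, and Camp was at 0 in imiquimod 1. That sum was carried by Il1r2, singled out after its values were seen; the other 9 summed to 88.7 and 309 CPM in imiquimod 1 and 2, against 14.9 and 52.8 CPM in Vaseline 1 and 2. T cell markers summed to 245 and 198 CPM in imiquimod 1 and 2, against 366 and 381 CPM in Vaseline 1 and 2. Keratinocyte markers, which as summed above were lowest in imiquimod 2 like 45 of 46 members, had a median log2 fold change of -0.73. Mitochondrially encoded transcripts took 0.377% and 0.774% of counts in imiquimod 1 and 2, against 0.786% and 0.841% in Vaseline 1 and 2. No direct measure of RNA quality was used here. The part of these cells and of RNA quality in the members' values was not tested.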

How the data were processed

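RNA of 4 libraries was made from 10 to 70 ng of total RNA with a stranded pico-input kit, version 2, per the labels' protocols. The deposited table holds read counts for each gene, unscaled and whole. Trimmomatic, HISAT2, SAMtools and StringTie on GRCm38 are named in the submitters' processing notes; versions, the strand setting and the treatment of multi-mapped reads are not given in the sources used here. Members and gene lists were chosen with earlier results of these data known. The whole table was fitted with edgeR 4.0.16 (R 4.3.3; TMM factors, quasi-likelihood test, newer form, two-sided) after the default filterByExpr (at least 10 counts, 15 in total), and Benjamini-Hochberg adjustment ran over all 39439 genes, at a threshold of 0.05. Intervals of shares and ratios are exact binomial (Clopper-Pearson). Levels are TMM-normalised CPM, and SE is the log2 fold change divided by the root of F. The background is the median count per exonic kilobase over 1768 receptor genes. A second fit kept genes by the ratio of their count per exonic kilobase to the background of the same library. The average of that ratio over the 4 libraries had to be at least 5. Exons and principal transcripts came from GENCODE vM21 and promoters from RefSeq. Named with values are the inducible members, their partners, Psme3, any called member and the extremes of each role; of each pathway list, up to 3 genes of smallest p. A result that met this rule is not reported here. Alternatives were DESeq2 1.42.0, limma-voom 3.58.1, other scalings and filters, a replicate block and leaving out each library. The main fit left out the replicate numbers, since no label says that they pair libraries.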

Additional observations from a re-analysis of the deposited data

How the results depend on the processing

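Across all genes the number of edgeR calls, 25 higher and 54 lower, differed by over 1.5 times in at least 1 direction under every setting tried. It was 17 and 14 with RLE size factors, 41 and 56 with upper-quartile factors, 8 and 5 with library totals alone, 0 and 0 without a filter on low counts, and 27 and 124 with at least 10 counts in every library. With DESeq2 it was 6 and 669, and with limma-voom 41 and 136. The fit of genes at 5 times the background or more called 0 and 0, where DESeq2 called 97 and 156. On all 39439 tested genes, the older quasi-likelihood form called 3 and 5. With the replicate number as a block 1 gene was higher and 0 lower, and 0 members were called; Psmb8 had an edgeR adjusted p of 0.705. No label says that these numbers pair libraries. Deviations of same-numbered libraries correlated at -0.33 over all tested genes and -0.11 over genes at 5 times the background or more. With 2 libraries a group, the deviations are a single difference per group, so the correlation cannot decide whether the numbers pair libraries. With crossed numbers as a block, added after seeing the data, the counts were 0 and 0. Leaving out each library in turn gave 8 to 2959 higher and 0 to 317 lower genes, the highest of both without Vaseline 1.

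The count of members called stayed at 0 in each setting except DESeq2, where it was 1 lower. The median of inducible minus constitutive members ran from -0.24 without Vaseline 1 to 0.09 without Vaseline 2. Scaling shifted the median of all tested genes from 0.41 to 0.16 with RLE factors, 0.76 with upper-quartile factors and 1.30 with library totals. With library totals the medians of inducible and constitutive members were -0.07 and -0.05. Without each library in turn, the Psmb9 over Psmb6 difference ran from -0.70 to 0.33, the second value without imiquimod 1.

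Of 382 values of named members under an alternative, 349 kept their direction and side of the threshold, 4 (Psmb10, Psmb11, Psmg1 and Psmg2 with DESeq2) kept their direction but had no adjusted p, 1 (Psmb8 with DESeq2, -2.42) became a call and 28 changed sign. With library totals, the fit of genes at 5 times the background or more and DESeq2 on those genes, in that order, the log2 fold change was 0.0886, 0.0546 and 0.0175 for Psma3, 0.29, 0.23 and 0.20 for Psmb10, 0.0905, 0.0485 and 0.0119 for Psmc2, 0.17, 0.13 and 0.10 for Psmd7, 0.42, 0.37 and 0.34 for Psmd9, 0.0937, 0.0654 and 0.0313 for Psmf1, and 0.66, 0.61 and 0.58 for Psmg2. Psmg1 was at 0.0560 and 0.00893 in the first pair of these. Psmg2 was at 0.19 with upper-quartile factors and 0.0332 with at least 10 counts in every library. Without each library in turn, Psmd7 ran from -1.88 to 0.16, positive only without imiquimod 2. Psmg2 ran from -0.66 to 0.23, positive without imiquimod 2 and, at 0.12, without Vaseline 2. The cause of these changes was not tested.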
